A study of Homo sapiens with 12 samples.

Results

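The genes described here encode the COPII coat, the protein shell that buds cargo vesicles from the endoplasmic reticulum. The 10 genes are the inner coat paralogues SEC23A and SEC23B, the cargo adaptors SEC24A, SEC24B, SEC24C and SEC24D, the outer cage subunits SEC13 and SEC31A, and the small GTPases SAR1A and SAR1B. They were chosen by name as the coat's subunits, with SEC23A, a known target of the miR-200 family, set against its paralogues. They are 10 of 19774 genes measured on 12 microarrays, and the arrays carry 25 probe sets for them.

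The arrays hold total RNA of 3 established human cell lines labelled as colorectal cancer, HUTU-80, MDST8 and NCI-H716, whose miR-200 loci are methylated per the labels. Both miR-200 clusters together, miR-200ba429 by lentivirus and then miR-200c141 by a second one, are represented by 2 arrays (MDST8 and NCI-H716, none for HUTU-80). The miR-200c141 cluster alone is represented by 4 arrays, 2 of them from HUTU-80 and titled 1:3 and 1:5, ratios that the labels do not explain. The miR-200ba429 cluster alone is represented by 3 arrays and the control by 3, with 1 array per line in each. Transduced cells were a GFP-sorted population (sort at 48 hours, second virus 24 hours after it), and RNA was taken on day 7. The labels do not say what the control cells received. Cells with both clusters also took up a further virus, so the second cluster and the second transduction cannot be told apart. Nothing in the labels says that arrays of a line came from separate cultures. Once the HUTU-80 pair is averaged, each group of a line has 1 sample. The p-values of comparisons between groups thus rest on how changes differ between lines, in 1 spread shared by the 4 groups. Both clusters have samples in 2 lines only, so for them part of that spread comes from the single-cluster samples. Scatter between arrays, which may be technical, is mixed into that spread.

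COPII vesicles form when the active GTPase SAR1 inserts into the membrane and recruits the SEC23-SEC24 heterodimer. SEC24 binds cargo, SEC23 stimulates GTP hydrolysis by SAR1, and the SEC13-SEC31 cage then polymerises over this inner layer. Vertebrates keep paralogues of most subunits, and SEC23A and SEC23B can replace each other in many cells. MicroRNAs of the miR-200 family lower the mRNAs that carry matches to their seed, ZEB1 among them, and are known for holding cells in an epithelial state.

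The mature microRNAs made by the 2 clusters are shown because their seeds, bases 2 to 8 in capitals, decide which messages each cluster can pair with. Sequences and positions are from RefSeq on GRCh38.p14. The miR-200c141 cluster lies on chromosome 12, with miR-200c-3p at chr12:6963742-6963764 and miR-141-3p at chr12:6964155-6964176, both on the plus strand. The miR-200ba429 cluster lies on chromosome 1, with miR-200b-3p at chr1:1167160-1167181, miR-200a-3p at chr1:1167916-1167937 and miR-429 at chr1:1169055-1169076, also on the plus strand.
hsa-miR-200c-3p: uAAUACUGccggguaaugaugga
hsa-miR-200b-3p: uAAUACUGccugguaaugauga
hsa-miR-429: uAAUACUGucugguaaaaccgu
hsa-miR-141-3p: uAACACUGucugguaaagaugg
hsa-miR-200a-3p: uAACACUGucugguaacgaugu
The seeds fall into 2 groups that differ by 1 base. The first is shared by 3 of the microRNAs and the second by 2, and each cluster carries both. The levels of the microRNAs themselves were not measured on these arrays.

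Levels are given as log2 intensity, so that 1 unit is a doubling of signal, and each gene is represented by its probe set of highest mean. Levels of different probe sets cannot be set against each other. The array medians lay between 3.60 and 3.66. Correlations between arrays were at least 0.978 inside a line and at most 0.885 across lines. A level of 5.43, the highest among 23 nonspecific control probe sets, was taken as background. The pair of HUTU-80 miR-200c141 arrays correlated at 0.995 and was averaged to 1 sample, which left 11 samples. Of the 7 gut epithelial markers measured, 0 were above background in the HUTU-80 control, 0 in the MDST8 control and 5 in the NCI-H716 control, so the labelled tissue is borne out by these markers only in NCI-H716. Of 5 general epithelial markers, 4 were above background on at least 1 HUTU-80 array, against 1 in that line's control, 2 against 1 in MDST8 and 5 against 4 in NCI-H716. Fibroblast markers were above background in the controls for 3 of 4 genes in HUTU-80, 3 for MDST8 and 1 for NCI-H716, endothelial markers for 0 of 3 in every control, and immune markers only for LYZ in NCI-H716, 1 of the 4 measured. The part of these shifts in the coat genes' values was not tested.

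With both clusters, SEC23A was the 1 coat gene of 10 whose change passed the test, where 6.14% of all genes passed. Its level there was 0.248 of the control in MDST8 and 0.344 of it in NCI-H716. SEC23B, its paralogue, was higher than control on both of those arrays, and so were SEC24C, SEC24D, SEC31A and SAR1B, by amounts that did not pass the test at gene level. SAR1A was lower on both, and SEC24A, SEC24B and SEC13 were lower on 1 of them. With a single cluster against control, no coat gene passed, and 0% of all genes did. In RNA from whole cultures, fewer cells that express a gene and less of its RNA per cell cannot be told apart.

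With both clusters SEC23A read 7.09 in MDST8 and 9.26 in NCI-H716. With miR-200c141 it read 9.92 and 10.30 in HUTU-80, 8.84 in MDST8, and 9.71 on the NCI-H716 array. With miR-200ba429 it read 10.32 in HUTU-80, 9.22 for MDST8 and 10.64 for NCI-H716, and in the controls 10.77 for HUTU-80, 9.10 for MDST8 and 10.80 for NCI-H716. The order within NCI-H716 was both clusters, miR-200c141, miR-200ba429, control, from lowest to highest. The same order held in MDST8 except that the miR-200ba429 array lay above the control, and in HUTU-80 the 3 construct arrays all lay below it. The pair of HUTU-80 miR-200c141 arrays differed by 0.38. The changes from control of −0.26 (miR-200c141) and 0.12 (miR-200ba429) in MDST8, and of −0.16 (miR-200ba429) in NCI-H716, were smaller than that difference. The HUTU-80 pair shares a construct, but its titles carry different ratios. On the other SEC23A probe set, 204344_PM_s_at, the pair lay closer, at 7.76 and 7.69. There the same changes were −0.22 and 0.30 in MDST8 and −0.26 in NCI-H716, larger than the difference of the pair. The pair thus gives no single measure of scatter between arrays.

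**Figure D1:**
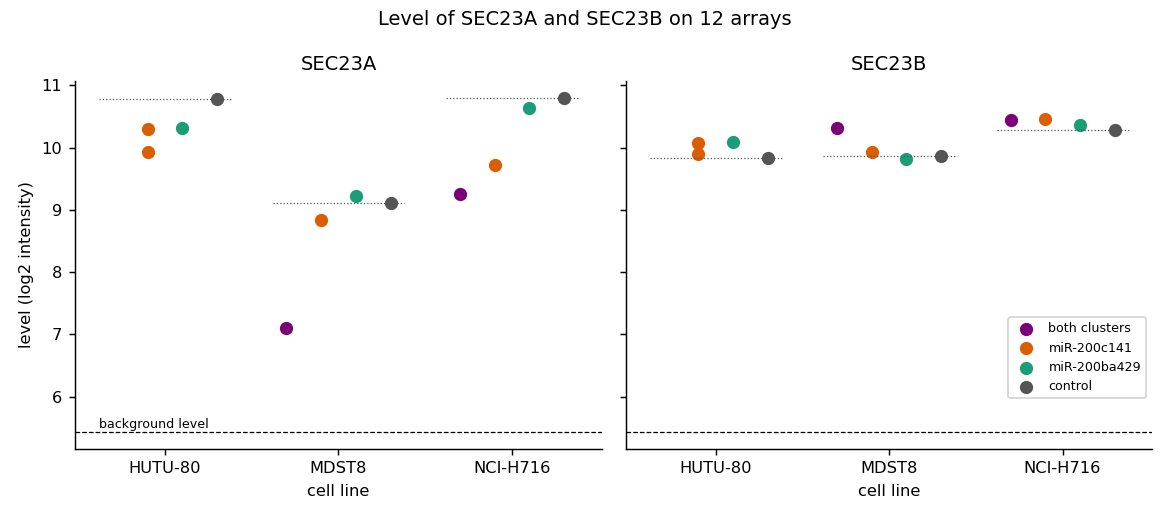
Level of SEC23A (left) and SEC23B (right) in log2 intensity on the 12 arrays, by cell line; each point is 1 array, coloured by construct, the dotted line marks the control of the line and the dashed line the background level. SEC23A with both clusters sits at 7.09 in MDST8 and 9.26 in NCI-H716, below every other array of its line, while SEC23B stays within 9.82 to 10.45 on all arrays.

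In the limma fit with a term for the cell line, SEC23A fell by 1.82 ± 0.22 on the log2 scale (SE; 95% interval −2.31 to −1.33; adjusted p = 0.001852). In that comparison 6.14% of all genes were called in either direction and 3.81% as lower, and SEC23A had the 46th deepest fall. It also fell when both clusters were set against the single ones, by 1.40 ± 0.20 (SE; adjusted p = 0.007554), where 1.66% of genes were called and 1.39% as lower. That call was lost without the MDST8 sample with both clusters (change −0.98; limma, adjusted p = 0.08526), though not without all MDST8 samples (−0.93; limma, adjusted p = 0.04516). The change against control kept its call in both cases. Both comparisons use the same 2 samples with both clusters. Fitted with only these samples and the controls, the change against control was −1.77 (limma, adjusted p = 0.04137).

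The 2 probe sets of SEC23A both fell with both clusters, but the order of the lines differed. The second, 204344_PM_s_at, read 5.02 in MDST8 and 6.57 in NCI-H716 with both clusters, against 6.40 in MDST8 and 8.54 in NCI-H716 controls, so that in MDST8 it lay below background with both clusters. It was thus at 0.384 of the control in MDST8 and 0.255 in NCI-H716, where the first probe set was at 0.248 and 0.344. Fitted over all probe sets, its change with both clusters was −1.68 and that of the first, 212887_PM_at, was −1.82 (limma, adjusted p = 0.001319 and 0.0007952). Of the 40920 probe sets, 3.26% were called lower there. Against the single clusters the changes were −1.31 and −1.40 (limma, adjusted p = 0.005448 and 0.003914), with 1.3% of probe sets called lower.

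Both measures of RNA quality on these arrays moved with this result. The difference between the 3′ and 5′ probe sets of ACTB, which grows as RNA degrades, was 2.02 on the MDST8 array with both clusters, against at most 1.54 on the other MDST8 arrays. It was 2.63 on the NCI-H716 array with both clusters, against at most 2.40 on that line's others. The same difference for GAPDH was 0.383 on the MDST8 array with both clusters, against at most 0.324 on the line's others, and 0.351 on the NCI-H716 array with both clusters, against at most 0.325. Their part in the values of the coat genes was not tested.

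With miR-200c141 alone, SEC23A differed from control by −0.67 ± 0.19 and was below it in 3 of 3 lines (SE; limma, unadjusted p = 0.005466, adjusted p = 0.5365). With miR-200ba429 alone the difference was −0.17 ± 0.19 (SE; limma, adjusted p = 0.9062). The direct comparison of miR-200c141 with miR-200ba429 gave −0.50 ± 0.19 (SE; limma, unadjusted p = 0.02504, adjusted p = 1.0), lower in 3 of 3 lines. Without the NCI-H716 sample with miR-200c141 these differences were −0.41 from control and −0.24 from miR-200ba429. None of these 3 comparisons called any of the 19774 genes after adjustment (0% each), though 1302, 1214 and 705 genes had an unadjusted p under 0.05, 2, 2 and 3 coat genes among them. All constructs averaged against control called 0% as well, and there SEC23A differed by −0.74 ± 0.38 (SE; limma, adjusted p = 0.559). Differences between constructs enter the spread of that fit, so its SE does not measure scatter between lines alone. A difference of SEC23A between lines was not detected (limma, F = 0.0672, adjusted p = 0.9998), in a test that called 0.00506% of genes. That test pools the constructs of a line, and HUTU-80 has no sample with both clusters. Lines and constructs are thus mixed in it, and differences between constructs stay in its spread. Not passing therefore does not show that the lines changed alike.

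SEC23B ran the other way on most arrays, at lower size. With both clusters it read 10.31 in MDST8 and 10.43 in NCI-H716. With miR-200c141 it read 9.90 and 10.07 in HUTU-80, 9.93 for MDST8 and 10.45 for NCI-H716, with miR-200ba429 at 10.09, 9.82 and 10.36 in the same order of lines, and in the controls at 9.83, 9.86 and 10.28. It was thus above its control on 8 of 9 construct arrays, the exception being MDST8 with miR-200ba429. The fitted change with both clusters was 0.33 ± 0.11 (SE; 95% interval 0.09 to 0.58; limma, adjusted p = 0.1092), which did not pass.

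The 3 probe sets of SEC23B did not give one answer. Probe set 201582_PM_at was higher than control on 9 of 9 arrays, at 8.66 in MDST8 and 9.57 in NCI-H716 with both clusters, against 7.93 in MDST8 and 9.07 in NCI-H716 controls. In the fit over all probe sets it rose by 0.64 with both clusters (limma, adjusted p = 0.01585), where 5.16% of probe sets were called. The third, 201583_PM_s_at, had a fitted change of 0.31 (limma, adjusted p = 0.2312). The gene-level value passed only without the NCI-H716 sample with both clusters, at 0.52 (limma, adjusted p = 0.0266), and was 0.15 without the MDST8 one (limma, adjusted p = 0.6034).

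**Figure D2:**
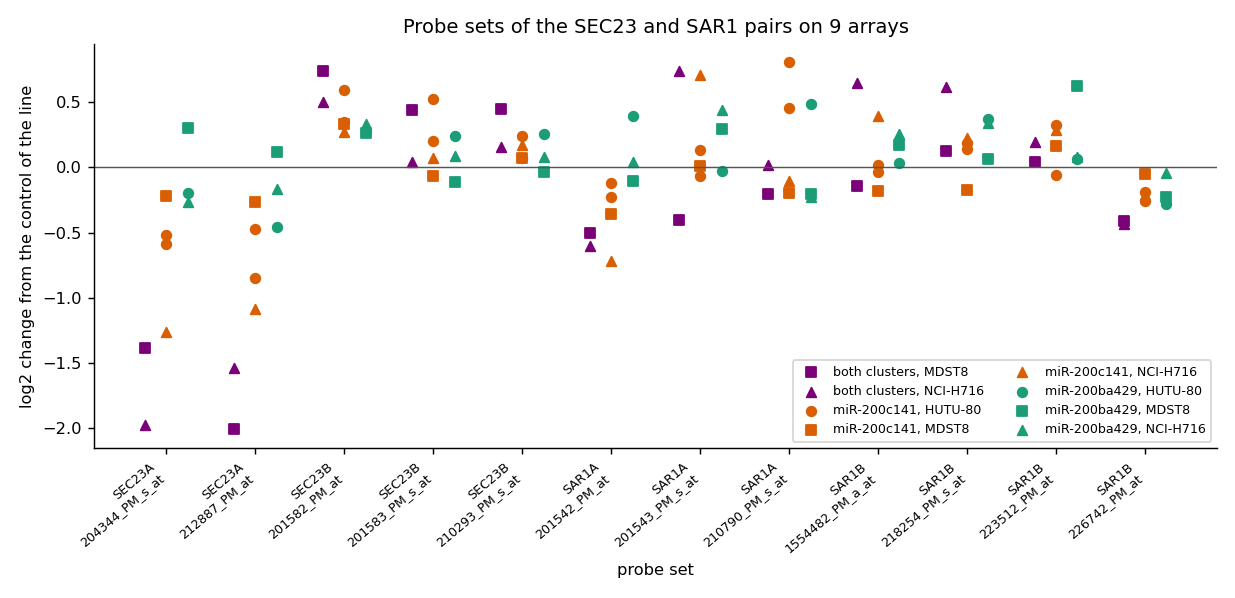
Log2 change from the control of the same line on the 9 construct arrays, for each probe set of SEC23A, SEC23B, SAR1A and SAR1B that was above background on at least 1 array; colours give the construct and shapes the line. Both SEC23A probe sets lie lowest with both clusters, all points of SEC23B 201582_PM_at lie above 0, and the probe sets of SAR1A and of SAR1B disagree in sign.

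The difference between SEC23A and SEC23B in their change from control was −2.46 in MDST8 and −1.70 in NCI-H716 with both clusters. Averaged over all constructs of a line it was −0.77 in HUTU-80, −0.88 for MDST8 and −1.07 for NCI-H716. These averages hold both clusters in MDST8 and NCI-H716 but single clusters only in HUTU-80, so they are not on like terms. With single clusters in MDST8, SEC23A changed by −0.26 (miR-200c141) and 0.12 (miR-200ba429), and SEC23B by 0.07 and −0.04. In the other lines SEC23A had the lower change of the pair with each single cluster. On the averages, SEC23A was the lower of each such pair in all 3 lines, whichever of the other 9 members it was set against. The average difference ran from −0.52 against SAR1A to −1.06 against SEC24D. None of the 9 differences passed a two-sided exact permutation test that takes each sample of a line in turn as its control. The smallest permutation p was 0.0625, against SEC24A, the difference from SEC23B had p = 0.1458 (adjusted over the 9 pairs, 0.1641), and SAR1A had the highest adjusted permutation p, 0.2292. With 48 choices of control, this test cannot go below 0.0208. It weighs all constructs alike, single clusters included. The samples with both clusters also take the place of the control, and both directions count. A change confined to those samples can thus give other choices of control a larger statistic than the true one. Not passing therefore does not show that the members changed alike.

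SEC24 proteins are the cargo-binding part of the inner coat, and none of the 4 changed past the threshold. SEC24A read 8.68 in MDST8 and 9.20 in NCI-H716 with both clusters, against 8.70 and 8.82 in the same lines' controls (fitted change 0.22 ± 0.13, SE; limma, adjusted p = 0.3717). A second SEC24A probe set, 212902_PM_at, differed from control by −0.12 in MDST8 and 0.96 in NCI-H716 with both clusters. Its fitted change was 0.35 (limma over probe sets, adjusted p = 0.4322). SEC24B, at 9.32 and 9.36 with both clusters against 9.18 and 9.37 in controls, and SEC24C, at 9.09 and 8.41 against 9.07 and 8.15, were within 0.3 of control on each of these arrays. The 95% intervals of their fitted changes, −0.12 to 0.32 for SEC24B and −0.15 to 0.42 for SEC24C, leave out a change of the size seen for SEC23A.

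SEC24D, the adaptor whose human mutations affect bone, varied most between lines. With both clusters it read 7.22 in MDST8 and 9.53 in NCI-H716. With miR-200c141 it read 5.40 and 5.58 in HUTU-80, 6.98 for MDST8 and 9.10 for NCI-H716, and with miR-200ba429 at 5.85, 7.21 and 9.02 in the same lines. The controls were at 5.22 in HUTU-80, below background, 7.13 for MDST8 and 8.70 for NCI-H716. It was above the control on 8 of 9 construct arrays, all but MDST8 with miR-200c141, and the distance with both clusters was 0.82 in NCI-H716 but 0.10 in MDST8. The fitted change of 0.52 ± 0.19 did not pass (SE; limma, adjusted p = 0.1417). A dimmer probe set, 215209_PM_at, read 7.14 with both clusters, 5.42 with miR-200c141 and 6.43 with miR-200ba429 in NCI-H716, against 5.60 in that control.

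Neither outer cage gene passed the test. SEC13, which also serves in the nuclear pore, read 10.05 in MDST8 and 10.34 in NCI-H716 with both clusters, against 10.40 and 10.23 in their controls, so the lines went in opposite directions. Its fitted change was −0.14 ± 0.11 (SE; limma, adjusted p = 0.515). SEC31A was at 10.27 and 11.11 with both clusters, against 10.05 and 10.76 in the controls (0.32 ± 0.11, SE; limma, adjusted p = 0.1096), but its least bright probe set, 215009_PM_s_at, differed from control by −0.08 in MDST8 and −0.07 in NCI-H716. With the mean of its probe sets the fitted change of SEC31A was 0.10.

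The SAR1 paralogues, which start coat assembly, stood on opposite sides of 0 in the probe sets used, and near 0 in the mean of all their probe sets (−0.10 for SAR1A and 0.07 for SAR1B with both clusters). SAR1A read 9.48 in MDST8 and 7.48 in NCI-H716 with both clusters, against 9.98 and 8.08 in the controls. With miR-200c141 it read 8.98 and 9.09 in HUTU-80, 9.62 for MDST8 and 7.37 for NCI-H716, all below their controls, while with miR-200ba429 it was at 9.60, 9.87 and 8.12, against controls of 9.20, 9.98 and 8.08. All 6 arrays with miR-200c141 in them, alone or with the other cluster, were thus below their control, and 1 of 3 with miR-200ba429 alone was. The fitted differences were −0.46 ± 0.15 for both clusters (SE; limma, adjusted p = 0.0916) and −0.52 ± 0.13 between miR-200c141 and miR-200ba429 (SE; limma, unadjusted p = 0.001782, adjusted p = 1.0), and neither passed. A second bright probe set, 201543_PM_s_at, disagreed in NCI-H716. There it was above control by 0.74 with both clusters and by 0.71 with miR-200c141, where the first had changes of −0.60 and −0.71. In MDST8 its change was −0.40 with both clusters, near the −0.50 of the first. With miR-200c141 alone in MDST8 it was 0.01, against −0.36 for the first.

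SAR1B, the GTPase needed for chylomicron export in gut cells, read 9.13 in MDST8 and 9.71 in NCI-H716 with both clusters, against 9.01 and 9.09 in the controls. Its fitted change of 0.41 ± 0.13 missed the threshold (SE; limma, adjusted p = 0.08738). Without the MDST8 control it passed, at 0.55 (limma, adjusted p = 0.04156). Here too the probe sets split: 226742_PM_at was lower than control on 9 of 9 arrays, with a fitted change of −0.45 (limma, adjusted p = 0.0954).

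**Figure D3:**
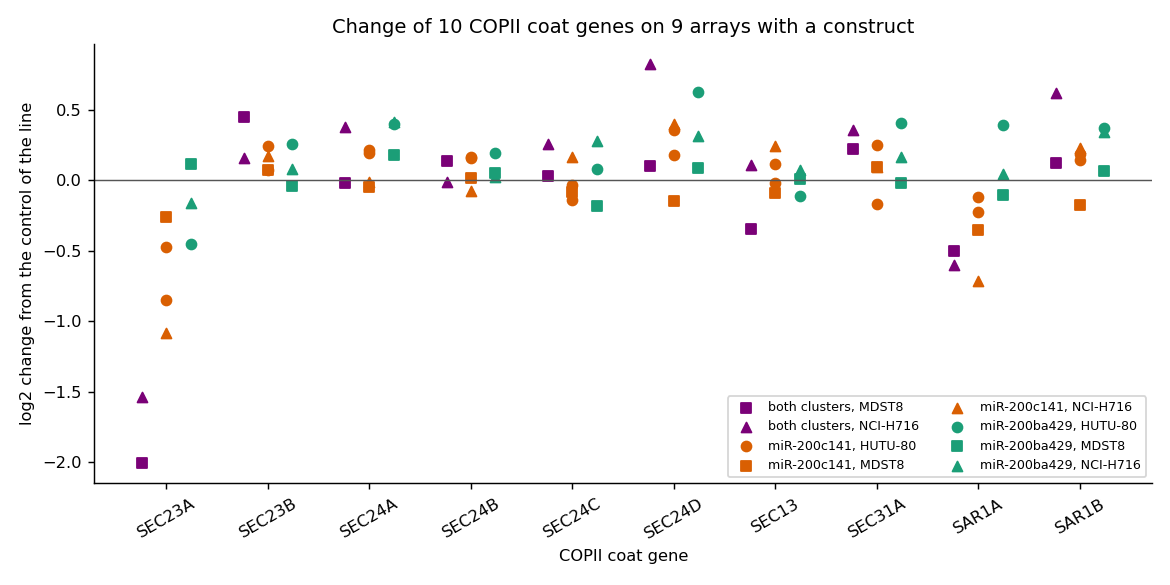
Log2 change from the control of the same line for the 10 COPII coat genes on the 9 construct arrays; colours give the construct and shapes the line, and 0 is the control. SEC23A with both clusters lies at −2.01 in MDST8 and −1.54 in NCI-H716, and no other gene is lower than −0.71 on any array.

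Counted over all constructs, SEC23A was lower than its control on 8 of 9 arrays, and SEC23B, SEC24D and SAR1B were higher on 8 of 9. Among all genes, 10.3% were lower on at least 8 of the 9 arrays and 10.2% higher, so such agreement is common here. The constructs of a line share 1 control. With both clusters the median change of the 10 members was 0.17 and 7 of 10 were positive. The median over all genes, those below background on every array included, was 0.0004. The called share of the members, 1 of 10 or 10%, is a single gene. An unadjusted p under 0.05 was reached by 6 of 10 members (SEC23A and SAR1A lower, SEC23B, SEC24D, SEC31A and SAR1B higher) and by 22% of all genes. All 10 members are above background on some array, and among the 11710 such genes tested alone 3669 reached it.

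**Figure D4:**
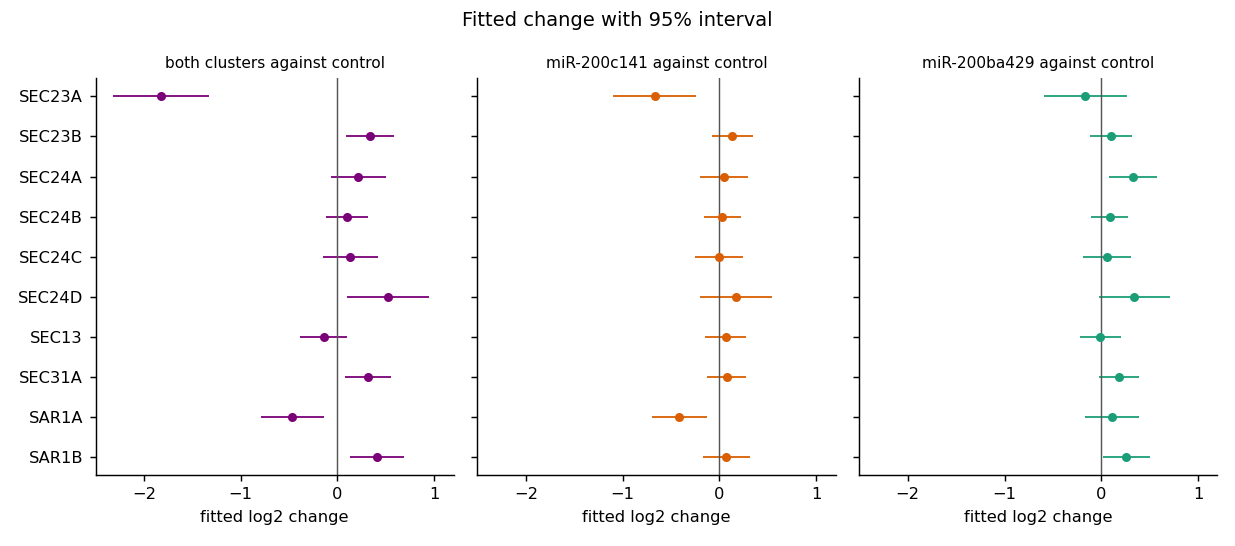
Fitted log2 change of each COPII coat gene against control with its 95% interval, for both clusters (left), miR-200c141 (middle) and miR-200ba429 (right); the 3 panels share the control samples. SEC23A with both clusters, at −1.82, is the only one to pass the threshold, and its interval overlaps that of no other gene in that panel.

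Over 6 lists of genes that work around the coat, 73 of 75 listed genes were measured and 8 changed with both clusters (5 higher, 3 lower), or 11%, against the 6.14% of all genes given above and 12.8% of the 11710 genes above background on at least 1 array, tested alone. All measured genes of 4 of the lists, and 18 of the 19 tethers and SNAREs, are among the latter. The 12.8% was adjusted over those 11710 genes alone and the list share over all genes, so these shares are not on like terms. The median fitted change with both clusters was 0.14 over the assembly factors, −0.03 over the cargo receptors, 0.24 over tethers and SNAREs, 0.19 over COPI genes and 0.10 over the transcription factors, against 0.0004 over all genes, those below background on every array included. None changed in any comparison of a single cluster with control. Of 14 factors of COPII assembly and regulation, none passed. PREB, the SEC12 exchange factor that activates SAR1, had a fitted change of 0.31 ± 0.12 (SE; limma, adjusted p = 0.1692) and SEC16A, the scaffold of exit sites, one of 0.40 ± 0.16 (SE; limma, adjusted p = 0.1644). SEC31B was above background on 1 array only.

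Among 20 cargo receptors and their partners, 3 fell and 2 rose. MCFD2, which with the lectin LMAN1 forms the receptor for coagulation factors V and VIII, read 9.37 in MDST8 and 8.64 in NCI-H716 with both clusters. With miR-200c141 it read 9.19 and 9.57 in HUTU-80, 10.51 for MDST8 and 9.43 for NCI-H716, with miR-200ba429 at 9.55, 10.62 and 9.96, and in the controls at 9.73, 10.80 and 10.28. It was below control on 9 of 9 arrays, and lowest in each line where both clusters were present. MCFD2 fell by 1.51 ± 0.12 with both clusters against control (SE; limma, adjusted p = 0.0004466), and by 1.14 against the single ones (limma, adjusted p = 0.001247). Another MCFD2 probe set above background on all arrays, 212246_PM_at, went the opposite way: it was above control on 9 of 9 arrays and rose by 0.58 (limma over probe sets, adjusted p = 0.02205). With the mean of all MCFD2 probe sets the gene's change was −0.28 and was not called (limma, adjusted p = 0.2267).

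LMAN1 fell by 0.28 ± 0.07 (SE; limma, adjusted p = 0.04548) and SURF4, a receptor for lipoproteins and other soluble cargo, by 0.49 ± 0.12 (SE; limma, adjusted p = 0.03197). TMED5 rose by 0.54 ± 0.08 (SE; limma, adjusted p = 0.0037) and TMED3 by 0.56 ± 0.15 (SE; limma, adjusted p = 0.049), both p24 proteins that cycle between the endoplasmic reticulum and the Golgi. TMED5 also rose against the single clusters, by 0.41 (limma, adjusted p = 0.01641). Of 19 tethers and SNAREs, RAB1A, the GTPase of this transport step, rose by 0.33 ± 0.09 (limma, adjusted p = 0.04646). Of 12 COPI genes, ARF4 rose by 0.34 ± 0.06 (limma, adjusted p = 0.01249), and of 6 transcription factors of the secretory pathway, CREB3 rose by 0.55 ± 0.15 (limma, adjusted p = 0.04953). Other probe sets above background on all 12 arrays did not always follow. RAB1A 207791_PM_s_at rose by 0.56, but 213440_PM_at had a change of −0.04 (limma over probe sets, adjusted p = 0.01469 and 0.9086). TMED5 202195_PM_s_at rose by 0.75, but 242263_PM_at had 0.07 (limma, adjusted p = 0.03241 and 0.8837). SURF4 222977_PM_at and 222979_PM_s_at had −0.44 and −0.23, neither called (limma, adjusted p = 0.08185 and 0.3106). The calls of LMAN1, SURF4, TMED3, RAB1A and CREB3 stood near the threshold and were lost in 13 to 18 of 22 alternative settings each, among them the loss of the HUTU-80 or the NCI-H716 control. The call of ARF4 was lost in 7, among them without the NCI-H716 control (0.32; limma, adjusted p = 0.0623). IGFBP4 and TINAGL1, secreted proteins tied to SEC23A in work on breast cancer, were below background on all 12 arrays.

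**Figure D5:**
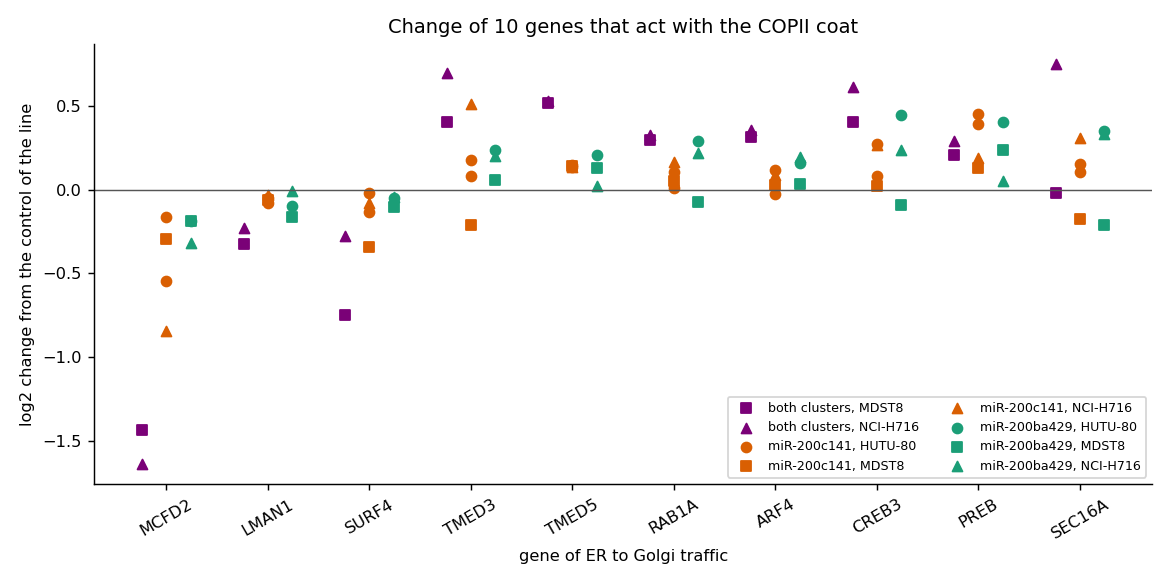
Log2 change from the control of the same line for 10 genes of transport between the endoplasmic reticulum and the Golgi, on the 9 construct arrays; colours give the construct and shapes the line, and 0 is the control. MCFD2 is lowest with both clusters (−1.44 in MDST8 and −1.64 in NCI-H716), and the TMED5 points all lie above 0.

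The genes whose levels followed SEC23A most closely over the 11 samples, each centred on its line, were HSPA13, MPRIP, GNA13, DPY19L1 and CBL. Their Pearson correlations with SEC23A were 0.993, 0.987, 0.986, 0.986 and 0.985 among 9371 genes searched. HSPA13, an Hsp70-related protein of the microsomal lumen, differed from control by −2.06 in MDST8 and −1.40 in NCI-H716 with both clusters, and fell by 1.79 ± 0.23 in the fit (SE; limma, adjusted p = 0.002352). Over the same samples SEC23B had a correlation with SEC23A of −0.899, SAR1A of 0.713, and the other 7 members lay between −0.61 and 0.434. These samples share arrays, lines and constructs, so the values describe likeness only. ZEB1, the family's best known target, fell by 2.11 ± 0.27 with both clusters (SE; limma, adjusted p = 0.002236) and differed by −1.69 with miR-200c141 alone, and its correlation with SEC23A was 0.829.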

How the data were processed

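The authors hybridised RNA of 3 cell lines to Affymetrix U133 Plus arrays and deposited log2 intensities per probe set made with RMA, per the submitters' processing notes; its version, its settings and a genome build were not given in the sources used here. No further normalization was applied. Of 54715 probe sets, 40920 name 1 gene, 864 name several and were left out, and 102 are controls; names were checked by Entrez number (40864 matched, 0 symbols changed). The probe set of highest mean represented each of 19774 genes. KDELR2 and USO1 were not analysed here.

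Groups came from sample titles. Changes were fitted with limma 3.58.1 (R 4.3.3 with 1.17.8 of data.table) over the 4 groups, with the cell line as a term, which pairs samples of a line by the labels, a variance trend, and two-sided p-values adjusted over all genes by Benjamini-Hochberg (threshold 0.05). In simulated data on 19774 genes, the fit of both clusters recovered 75% of changes of 1 log2 unit and 97% of those of 2, and the test between lines 12% and 82%. The simulated spread was that of the fit over the 4 groups. It held no differences between constructs, which the test between lines leaves in its spread. For genes whose constructs differ, SEC23A among them, the last 2 shares may be too high. The number of arrays limits precision. Genes were named by membership of the lists, by call, and, for likeness to SEC23A, as the 5 highest correlations. The members, lists and tests were chosen with earlier results of these data known.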

Additional observations from a re-analysis of the deposited data

How the results depend on the processing

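SEC23A with both clusters against control lay between −2.24 and −1.40 over 22 alternatives and kept its call in 21. The exception was the fit without the cell line term (no replicate block), at −2.05 with adjusted p = 0.9991 by limma, where no member (0) and 0 of all genes were called. In that fit SEC23A against the single clusters was −1.63 (limma, adjusted p = 1.0; 0 members called), and SEC24B turned to −0.12. Leaving out each sample or line in turn, the number of members called was 1 to 2 against control and 0 to 1 against the single clusters; SEC23A against the single clusters ran from −1.82 to −0.98 as samples were left out, with no call at −0.98 (without the MDST8 sample with both clusters), and from −1.86 to −0.93 as lines were. SEC13 ran from −0.30 to 0.02 as samples were left out, turning to 0.02 without that sample, and to 0.04 without MDST8. SAR1B was called without the MDST8 control and, at 0.62 (limma, adjusted p = 0.0366), without MDST8. The genes called with both clusters, 1214, were 662 with the mean of probe sets, 679 without the variance trend, 19 with only the groups compared, 634 without the HUTU-80 control, 759 without the MDST8 control, 383 without the NCI-H716 control, 477 without the MDST8 sample with both clusters and 362 without HUTU-80. Against the single clusters 329 genes were called, but 118 with the mean of probe sets, 0 without the line term, 98 without the variance trend, 154 with only the groups compared and 509 with the HUTU-80 pair as separate samples. That count ran from 103 without the MDST8 sample with both clusters to 1083 without the NCI-H716 one as samples were left out, with 115 to 139 without the HUTU-80 control, the MDST8 sample of either single cluster or the NCI-H716 miR-200ba429 sample. Leaving out a line gave 85 (HUTU-80) to 577 (NCI-H716). MCFD2 kept its call in 20 of 22 alternatives and TMED5 in 19. No member was called with a single cluster under any alternative run. The causes were not tested.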
